A study of Mus musculus with 4 samples.

Results

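Olfactory receptor gene clusters were examined as 4 windows of the mouse genome (build mm9), at chr2:85000000-90300000, chr2:111100000-112050000, chr9:37500000-40200000 and chr19:11900000-14200000. Every genomic probe of the arrays that lay in a window was taken, and probes up to 1000 bp apart were joined into regions. This gave 3339 of 174638 probes and 447 of 22125 regions. The larger chromosome 2 window held 229 regions, the smaller one 35, the chromosome 9 window 107 and the chromosome 19 window 76. Membership rests on position alone and used no measured value. The files name probes by coordinates and not by genes, so single regions are not tied to single receptors, and the cluster label could not be checked against an annotation of the same build.

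The DNA came from 3T3-L1, a mouse embryo fibroblast line whose cells can be turned into fat cells in culture. One line was wild type and served as control. The other was stably transfected with an shRNA, called shRNA8, against the long non-coding RNA slincRAD. Whether that line was a single clone or a pool is not given in the sources used here, and no line with a control shRNA is among the samples. Each line was harvested at day -2, in growth medium with 10% newborn calf serum, and at day +2, counted from the induction of confluent cells with insulin (167 nM), dexamethasone (1 µM) and 3-isobutyl-1-methylxanthine (0.5 mM). Each of the 4 combinations was measured on 1 two-colour array, so no difference below has a spread between replicates and no test was made. Precision is limited by how few arrays there are. Each SD below is over probes or regions of the same arrays. Differences between the lines or between the days cannot be told apart from differences between the arrays or cultures.

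In methylated DNA immunoprecipitation on arrays (MeDIP-chip), sheared DNA is captured with an antibody against 5-methylcytosine, the methylated base found mostly at CG dinucleotides. The captured DNA (IP) is hybridized together with uncaptured input DNA, and the ratio of both signals stands for methylation relative to the DNA present. Here IP carried Cy5 and input Cy3 according to the labels, which could not be checked, and exchanged dyes would reverse each ratio. Capture depends on how many methylated cytosines a fragment carries, so sequence poor in CG gives little IP signal whether or not its few sites are methylated. Olfactory receptors are odorant-sensing G protein-coupled receptors and form the largest gene family of the mouse. Their genes stand in long tandem clusters of AT-rich DNA, each mature olfactory neuron expresses essentially one of them, and they are silent in most other cells, fibroblasts and fat cells included.

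The CG content of receptor promoters is shown first because it bears on what an antibody against methylated CG can capture. In the RefSeq promoter sequences of GRCm38.p6 (250 bases before to 50 after each gene start), 412 promoters of 409 genes with an olfactory receptor symbol (Olfr) lie on chromosomes 2, 9 and 19. They held a median of 1 CG (interquartile range 0 to 2), and 35.2% held none. The other 5391 promoters on these chromosomes held a median of 9, and 3.90% held none. Over all 32841 promoters of the table, 5.42% had no CG. Median GC content was 33.5% in the receptor promoters and 54.3% in the others. One receptor promoter with the median count is printed for each chromosome, 5′ to 3′ on the gene's strand with CG in capitals, together with one promoter of another gene on these chromosomes at the median of that set. They come from another build than the arrays and were not placed on any probe. In Olfr1000 and Olfr1427 the bases after the gene start begin with atg, the triplet of a start codon. Their gene start may thus be that of the coding sequence, and the CG of Olfr1000 lies behind it. How many other receptor entries begin this way was not counted, so both sets of promoters may not be placed alike.
Olfr1000, chromosome 2, minus strand: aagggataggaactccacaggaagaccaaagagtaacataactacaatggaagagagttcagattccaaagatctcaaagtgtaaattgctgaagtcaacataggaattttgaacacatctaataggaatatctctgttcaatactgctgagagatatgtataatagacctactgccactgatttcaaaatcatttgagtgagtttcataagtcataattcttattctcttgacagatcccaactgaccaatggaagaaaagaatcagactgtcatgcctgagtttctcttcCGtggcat
Olfr25, chromosome 9, plus strand: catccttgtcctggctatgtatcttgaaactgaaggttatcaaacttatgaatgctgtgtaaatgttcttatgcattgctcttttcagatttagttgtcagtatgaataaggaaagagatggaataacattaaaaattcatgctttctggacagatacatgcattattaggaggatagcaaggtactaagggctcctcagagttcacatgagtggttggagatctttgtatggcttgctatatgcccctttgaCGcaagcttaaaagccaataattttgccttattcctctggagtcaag
Olfr1427, chromosome 19, minus strand: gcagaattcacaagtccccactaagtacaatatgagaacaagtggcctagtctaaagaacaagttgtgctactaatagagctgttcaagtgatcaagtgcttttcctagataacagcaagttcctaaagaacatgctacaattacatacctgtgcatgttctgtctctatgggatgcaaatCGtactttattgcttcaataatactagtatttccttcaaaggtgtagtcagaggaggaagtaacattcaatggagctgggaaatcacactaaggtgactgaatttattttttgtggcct
1700092M07Rik, not a receptor, plus strand: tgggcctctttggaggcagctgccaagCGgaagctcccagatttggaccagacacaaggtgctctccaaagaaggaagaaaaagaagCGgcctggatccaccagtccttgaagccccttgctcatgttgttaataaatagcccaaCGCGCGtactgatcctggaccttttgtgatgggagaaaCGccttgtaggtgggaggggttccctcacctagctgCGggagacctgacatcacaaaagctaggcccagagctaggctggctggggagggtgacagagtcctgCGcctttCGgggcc

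The probes in the receptor windows were dim in both channels, and more so in the immunoprecipitated DNA. Their median IP signal after background subtraction was 6.98 in control cells at day -2, 6.89 in control cells at day +2, 7.89 in shRNA8 cells at day -2 and 7.79 in shRNA8 cells at day +2. All other probes had medians of 50.5, 50.5, 57.8 and 58.2 in the same order. In the flanks, 2 Mb on either side of each window, the medians were 42.6 to 48.6, so over all probes the windows were dimmer than their own surroundings. Probe lengths differed between windows and flanks, and values by length are given below. Median input signal was 2.93, 2.69, 3.10 and 3.96 in the windows and 6.64, 6.09, 8.86 and 8.98 elsewhere. These net signals stood over backgrounds whose medians were 9 to 10 (IP) and 22 to 26 (input). IP was above background for 63.1%, 63.4%, 63.9% and 63.1% of the window probes and for 88.2% to 88.7% of the others. Input was above background for 51.3%, 52.7%, 51.3% and 62.2% of the window probes, with exact 95% binomial intervals of 49.6% to 53.0%, 51.0% to 54.4%, 49.6% to 53.0% and 60.5% to 63.9%. These intervals cover counting error over probes only. Elsewhere the input shares were 67.9%, 69.04%, 72.4% and 76.6%.

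**Figure D1:**
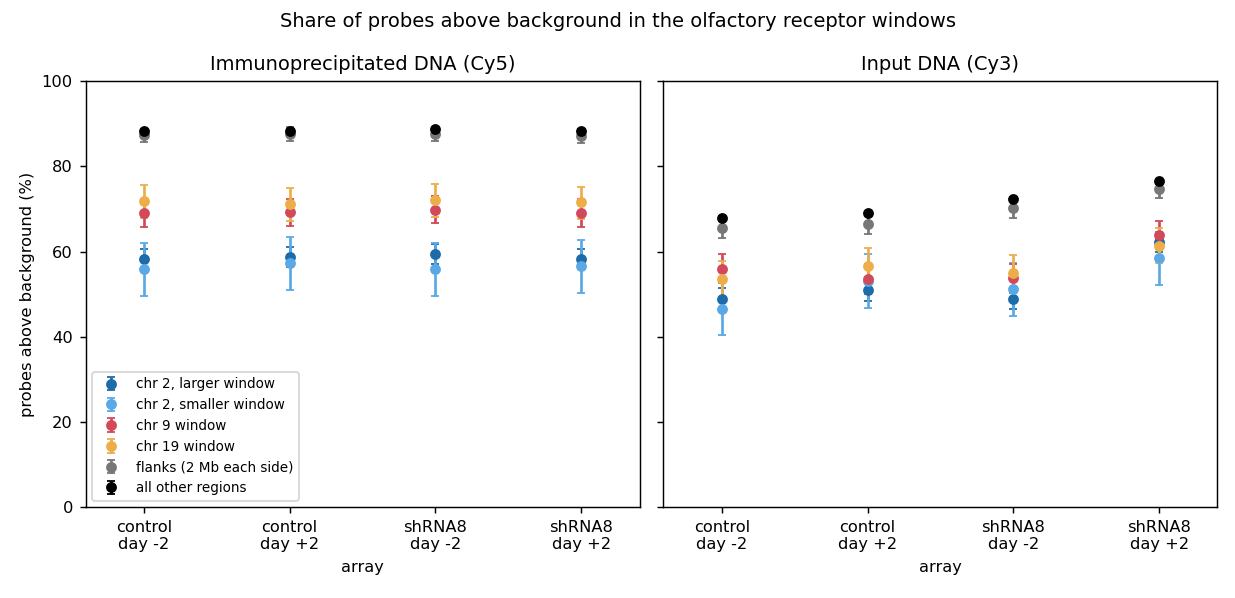
Share of probes above background (%) in the immunoprecipitated DNA (left) and the input DNA (right) of each array, for each receptor window, the 2 Mb flanks and all other regions. Bars are exact 95% binomial intervals over probes. Over probes of all lengths, the windows lie below the flanks in both channels and all 4 arrays, and their input shares are highest in shRNA8 cells at day +2.

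Among the windows, those on chromosome 2 were the dimmest in IP. IP was above background for 58.3% to 59.5% of probes in the larger one and 55.8% to 57.4% in the smaller one, against 68.99% to 69.8% on chromosome 9 and 71.2% to 72.1% on chromosome 19. Both also held the most probes of 60 bp, at 54.8% and 55.4%, against 44.7% on chromosome 9 and 38.6% on chromosome 19. The windows were not compared with each other at equal probe length. Within windows the signal was uneven. Over stretches of up to 500 kb, the share in control cells at day -2 went from 43.8% to 94.4% (IP) and from 39.1% to 83.3% (input). Both highest values came from the last stretch of the chromosome 9 window, which the window's end cuts short. It held only 3 regions and 18 probes, with a mean length of 46.9 bp. The next highest shares were 81.1% (IP) and 70.9% (input).

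One array stood out in input. In shRNA8 cells the input share of window probes was 10.9 percentage points larger at day +2 than at day -2, with 686 probes that passed only at day +2 and 321 that passed only at day -2. The same difference was 1.41 points in control cells, and the IP shares moved by 0.30 points in control and -0.78 points in shRNA8 cells. Outside the windows the shRNA8 input difference was 4.23 points. Among probes of 60 bp alone, however, it was 14.1 points in the windows and 12.4 points elsewhere. Probes of that length thus showed a similar difference in and outside the windows. At 45 bp it was 4.79 points in the windows and 0.74 elsewhere, and from 46 to 49 bp 6.59 and 3.92 points. From 50 to 54 bp it was 8.41 and 7.12 points, and from 55 to 59 bp 9.94 and 9.49 points. In each length class it was thus larger in the windows, most clearly among the shorter probes.

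Probe length differed strongly between the windows and the rest. Probes of 60 bp made up 49.6% of window probes and 12.5% of the others, and probes of 45 bp made up 9.37% and 50.7%. Mean length was 55.6 bp in the windows and 49.1 bp elsewhere. At 45 bp, nearly every probe had IP above background in both sets, at 98.1% in the windows and 98.2% to 98.4% elsewhere, but the window probes were dimmer, with median net IP of 85.9 to 99.9 against 120.7 to 140.3. From 46 to 49 bp the medians were near each other, at 39.1 to 45.9 in the windows and 41.1 to 47.4 elsewhere. At 60 bp, IP was above background for 37.8% to 39.2% of window probes and 48.0% to 49.2% of the others, with median net IP of 0.78 to 1.07 and 2.10 to 2.43. Within each of these length classes the IP medians of the windows and the rest thus lay closer together than over all probes. Input was above background more often in the windows at 46 to 49 bp (63.7% to 76.4% against 61.1% to 72.1%). The same held at 50 to 54 bp (62.1% to 72.5% against 55.2% to 68.2%). It was so less often at 45 bp (75.7% to 83.7% against 81.1% to 86.4%). This also held at 55 to 59 bp (50.5% to 63.8% against 54.1% to 67.5%) and at 60 bp (37.2% to 51.3% against 44.7% to 57.1%).

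The ratio of IP to input was taken for probes whose input exceeded background on each of the 4 arrays, which were 957 (28.7%) of the window probes and 54.9% of the others. Within length classes, the median log2 ratio of window probes minus that of other probes did not keep one sign. At 45 bp it was higher in the windows by 0.35 and 0.33 in control cells and by 0.22 and 0.17 in shRNA8 cells, at day -2 and day +2. At 50 to 54 bp it was lower in every array, at -0.19 and -0.27 in control and -0.29 and -0.37 in shRNA8 cells. At 60 bp it was again lower, at -0.41 and -0.25 in control and -0.30 and -0.22 in shRNA8 cells. The classes of 46 to 49 bp and 55 to 59 bp lay between, at -0.23 to -0.06 and -0.18 to -0.06.

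**Figure D2:**
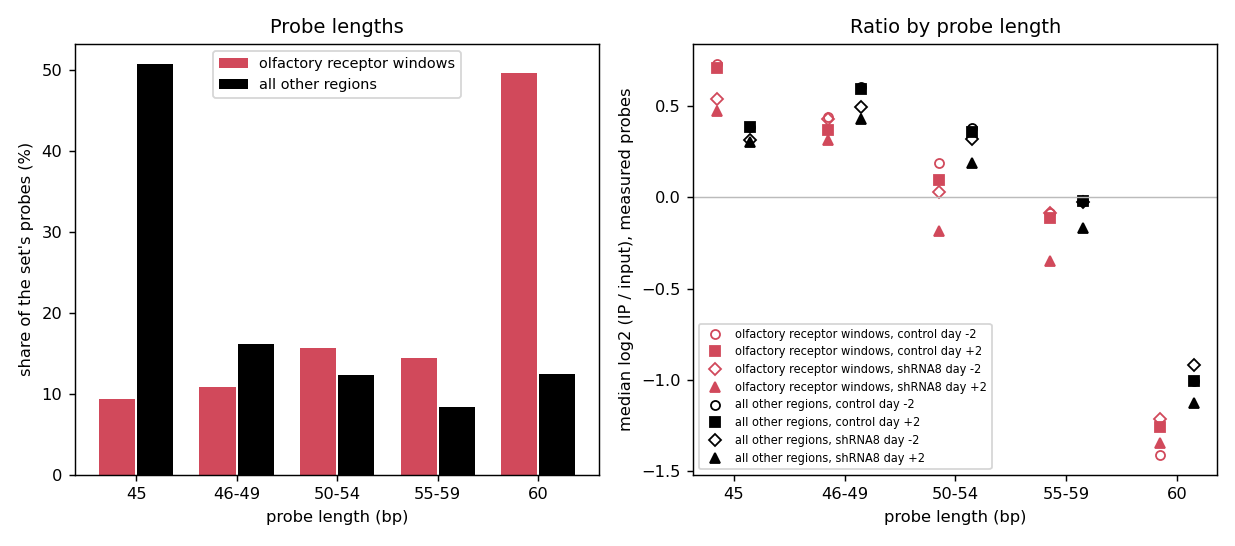
Left, share (%) of the probes of the receptor windows and of all other regions in each class of probe length (bp). Right, median log2 ratio of IP to input of measured probes by length class, with 1 symbol per array. Almost 1 window probe in every pair has 60 bp (49.6%), and the ratio is lowest for 60 bp probes in both sets, and highest at 45 bp in the windows and at 46-49 bp elsewhere.

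A region counted as measured with at least 3 such probes. In the windows 158 of 447 regions (35.3%) were measured, against 82.0% of all other regions and 80.6% of the flanking ones. The larger chromosome 2 window kept 67, the smaller one 9, chromosome 9 kept 48 and chromosome 19 kept 34. Another 42 window regions had no measurable probe at all. The 289 regions left out were the dimmest, with median net IP of 4.18 to 5.07 per array against 14.8 to 17.0 over all probes of the measured ones, and 55.4% of their probes had 60 bp, against 39.7%. What follows therefore describes the brighter part of the clusters. Measured window regions were also thin, with a median of 3 measured probes against 5 elsewhere.

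Over these 158 regions the median log2 ratio was -0.15 in control cells at day -2, -0.04 in control cells at day +2, -0.22 in shRNA8 cells at day -2 and -0.31 in shRNA8 cells at day +2. Other regions had medians of 0.15, 0.16, 0.09 and 0.08, so the windows were lower by 0.30, 0.20, 0.31 and 0.40. The flanks did not share this, with medians of 0.24, 0.23, 0.26 and 0.19. Both channels were lower in the windows, IP by 1.60, 1.66, 1.62 and 1.63 and input by 1.02, 1.03, 1.03 and 1.07 on the log2 scale. The size of this difference depended on the processing. With the median of each probe length taken off the ratio it was -0.04, -0.05, -0.07 and -0.10. After a within-array loess on intensity it was -0.066, 0.00041, -0.037 and -0.14, with the sign turned in control cells at day +2, and without the input filter it was -1.002, -1.06, -0.90 and -1.004. Probes of 60 bp alone left 4 window regions, with differences above 0 in every array. The ratio was below 0 in all 4 arrays in 75 window regions (47.5%) and above 0 in all 4 in 38 (24.1%), against 35.3% and 47.0% of the other regions. Spread within the windows was wide, with an SD over regions of 1.096 to 1.22. A ratio needed only its input to be above background. IP was at background for 8.43% to 9.29% of the probes in measured window regions, against 1.78% to 1.86% elsewhere, and 51 of the 158 regions (32.3%, against 9.71%) held such a probe in some array, so that very low ratios are uncertain.

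The regions kept their order from array to array. Over the 158 regions, Pearson's r between any 2 arrays was 0.95 to 0.97 for the ratio, 0.998 to 0.999 for IP and 0.91 to 0.93 for input. These are correlations across regions that share the probes and their lengths, and the ratio itself correlated with mean probe length at r of -0.33 to -0.28.

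**Figure D3:**
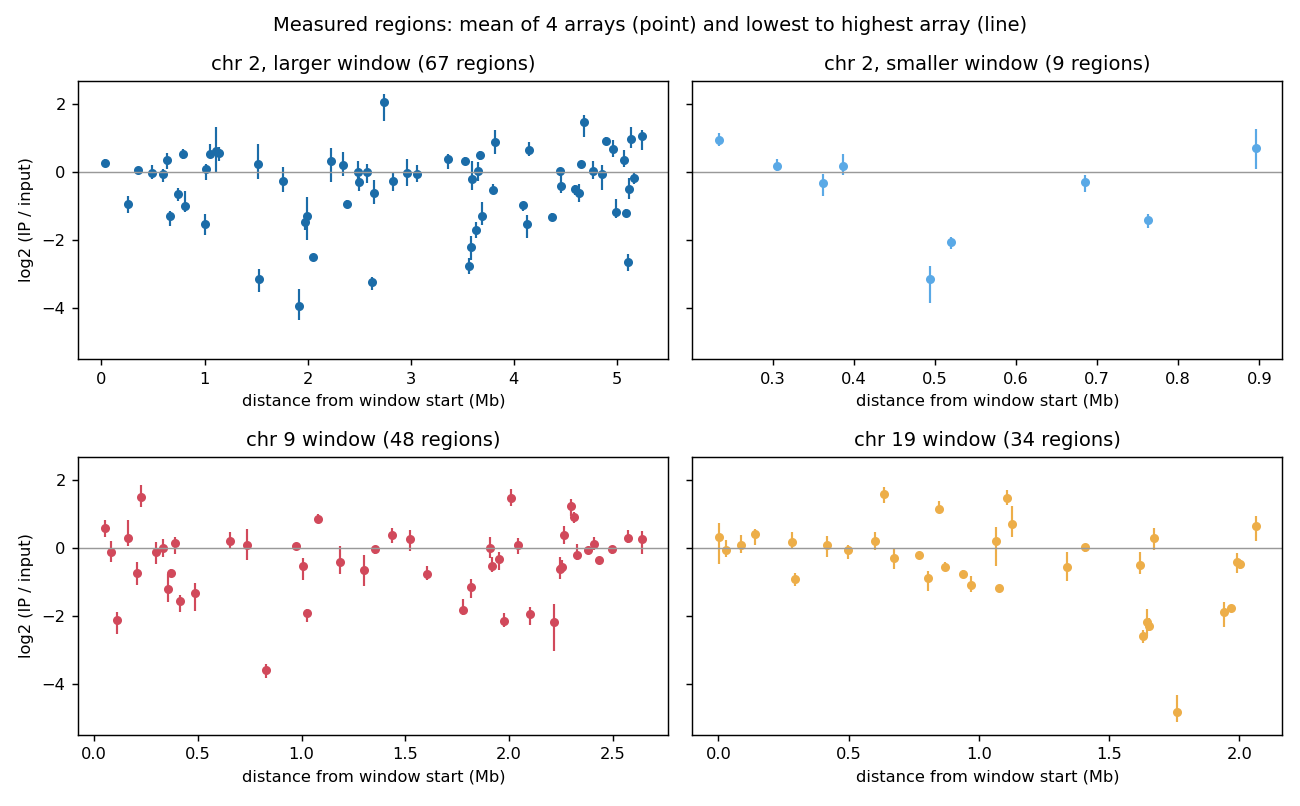
Log2 ratio of IP to input of the 158 measured regions against the distance from the start of their window (Mb). Points are means of the 4 arrays and lines run from the lowest to the highest array. Single array values run from -5.12 to 2.30, and regions side by side can lie at opposite ends of this range.

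The extremes show what a high and a low ratio looked like here. In the larger chromosome 2 window the highest region, chr2:87743537-87744756, had log2 ratios of 2.29 (day -2) and 2.30 (day +2) in control cells and of 2.18 and 1.505 in shRNA8 cells. Its mean net IP was 155.0, 146.1, 171.6 and 163.2 in the same order, against a net input of 6.57, 5.51, 8.36 and 11.7. The lowest, chr2:86912086-86913368, had ratios of -4.14, -3.75, -4.33 and -3.45, with IP of only 6.73, 6.05, 6.21 and 7.35 over an input of 49.7, 60.1, 53.2 and 24.7. So the same window held regions with almost no captured DNA in a clear input and regions with the reverse. Its region with the most measured probes (5), chr2:86116143-86117888, had ratios of 1.33, 0.73, -0.03 and 0.46.

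In the smaller chromosome 2 window, chr2:111333243-111334754 was the highest, at 0.76, 1.14, 0.92 and 0.97. The lowest was chr2:111593188-111594744, at -2.87, -2.77, -3.06 and -3.85. Only 2 of its 4 measured probes had IP above background in every array, and these gave -1.84, -1.78, -2.60 and -3.53. The region with the most measured probes (6), chr2:111619211-111620879, stood at -2.00, -2.26, -2.08 and -1.91. Its probes were unlike each other. The brightest in IP, at net signals of 795.6, 808.1, 884.4 and 854.8, had normalized ratios of 0.16, -0.06, -0.67 and -0.09, while the lowest ratio, at -6.38, -5.99, -6.01 and -6.27, was that of a probe with IP of 3.96, 2.91, 3.56 and 3.42.

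On chromosome 9 the ratio of chr9:37724833-37726518 was the highest (1.21, 1.37, 1.47 and 1.85) and that of chr9:38330018-38330944 the lowest (-3.56, -3.58, -3.81 and -3.41). In the latter only 2 of 3 probes had IP above background in every array, at -2.36, -2.22, -2.93 and -2.34. The 6 measured probes of chr9:38472932-38474549 averaged 0.03, 0.04, -0.03 and 0.13, the steadiest of the regions named here. On chromosome 19, chr19:12534174-12534846 was the highest (1.78, 1.79, 1.32 and 1.43), with net IP of 615.8, 620.4, 719.0 and 662.6. The lowest region of all windows, chr19:13659818-13660282, had ratios of -4.32, -4.93, -4.96 and -5.12, but only 1 of its 3 probes had IP above background in every array, at -0.19, -2.26, -2.02 and -1.56. Its rank and level thus rest on IP at background. The 7 measured probes of chr19:12870375-12873258, the most in any window, averaged -1.31, -0.82, -1.05 and -1.16.

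Comparing the lines at each day asks whether cells with the shRNA against slincRAD differ in methylation of these clusters. For this, the ratios of each array were set to a median of 0 and to the same quantiles, and the size rule asked for a mean difference over probes of 0.6 or more (log2, 1.52-fold), with 75% or more of the probes on that side. At day -2, 6 of the 158 regions were higher in shRNA8 cells and 6 lower, beside 1.16% and 1.3% of all 17939 measured regions. Together they were 7.59%, beside 2.46%. At day +2, 5 were higher and 6 lower, beside 1.42% and 2.01%, and together 6.96%, beside 3.43%. The windows as a whole did not shift, with a mean difference of -0.01 (SD over regions 0.38) at day -2 and -0.04 (SD 0.35) at day +2, and with 73 and 68 regions above 0. The larger share thus went with a wider scatter in both directions, the SD being 0.26 and 0.29 in the other regions. Of regions near the limit, the smallest that counted at day -2 differed by -0.62 and the largest just under it by -0.60, and at day +2 these were 0.65 and -0.59. Another 2 regions at each day were past the size but had too few probes in one direction.

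The largest higher region at day -2, and the one with the smallest spread over probes, was chr19:13545289-13545751. Its log2 ratios were -2.59 (day -2) and -2.31 (day +2) in control cells and -1.80 and -2.06 in shRNA8 cells. Only 2 of its 3 probes had IP above background in every array, and these gave -2.11, -1.72, -1.29 and -1.45 in the same order. The normalized difference between the lines was 0.82 (SD over 3 probes 0.10) at day -2 and 0.22 at day +2. Next came chr2:88586787-88587696, with 0.74 (SD 0.33) at day -2 and -0.24 at day +2.

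The largest lower regions at day -2 each held 1 spot that differed far more than the rest. Region chr9:39716308-39717783 differed by -1.34 (SD over 4 probes 1.93). One of its 60 bp probes had a net input of 4.74 and 3.22 in control cells and of 93.1 and 2.73 in shRNA8 cells, with IP near 0 throughout, and without that probe the difference was -0.38. In chr2:86116143-86117888 all 5 probes were lower in shRNA8 cells at day -2 and the mean difference was -1.28 (SD 1.19). One probe of 45 bp had net input of 7.91 and 9.16 in control cells and 111.4 and 12.1 in shRNA8 cells, and without it the difference was -0.77, still past the size. The mean net IP of that region was 65.7, 68.0, 79.0 and 72.5, with no such jump. In chr19:12964567-12965510, at -1.07 (SD 1.61), the difference was -0.14 without 1 probe.

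At day +2 the largest higher region was chr2:86990949-86991782, at 1.24 (SD over 3 probes 0.63). Its ratios were -1.31 and -1.98 in control cells and -1.14 and -0.74 in shRNA8 cells, so the control array at day +2 was the low one. Only 2 of its 3 probes had IP above background in every array, and these gave -0.31, -0.91, 0.35 and 0.55. Over all measured probes of the region, net IP was 24.5, 24.7, 27.2 and 28.7 in these arrays and net input 7.62, 11.3, 7.85 and 5.90. Region chr2:86516994-86518097 differed by 0.94 (SD 0.92) and the highest region of chromosome 9, chr9:37724833-37726518, by 0.70 (SD 0.69). They came to 0.45 and 0.31 without the probe that differed most, while the first region kept 0.90.

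Among lower regions at day +2, chr19:11903231-11904094 had all 5 probes lower and differed by -1.11 (SD 0.78). Its ratios were 0.38, 0.73, 0.59 and -0.46, with shRNA8 cells at day +2 below the other 3 arrays. Net IP there was 51.9, 51.7, 60.2 and 57.6, and net input was 7.83, 5.25, 7.85 and 15.2. The lowest region of the smaller chromosome 2 window, chr2:111593188-111594744, differed by -1.16 (SD 1.504), or -0.60 without 1 probe and then just under the size. Region chr9:38683463-38685185 was lower by -0.78 (SD 0.49) at day +2 and, under the size, by -0.57 at day -2, with input of 11.3 and 8.68 in control and 21.2 and 19.1 in shRNA8 cells.

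No window region passed the size rule in the same direction at both days, beside 0.270% of the other regions, a share too small for 158 regions to show a difference. Over the 158 regions the difference at day -2 and that at day +2, which share no array, gave a Pearson's r of 0.13 and, by ranks, a Spearman's rho of 0.15. This is across regions that share probes, and r was 0.20 in the other regions. By window, r was 0.07 in the larger chromosome 2 window, -0.12 in the smaller one (9 regions), 0.36 on chromosome 9 (48 regions) and 0.09 on chromosome 19. For the difference in IP alone, r between the days was -0.22, and for that in input it was 0.23. Both are weak, and in the other regions they were -0.11 and 0.23.

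The change from day -2 to day +2 spans the start of fat cell differentiation, with the limit of 1 array per line and day. In control cells 1 region was higher at day +2 and 2 were lower, beside 0.981% and 1.08% of all regions. Together this is 1.90% of the 158, beside 2.06%. In shRNA8 cells 2 were higher and 6 lower, beside 0.981% and 2.21%, and together 5.06%, beside 3.19%. A within-array loess gave larger counts in these comparisons and in those between the lines, most of all in control cells, where 16 regions passed (10.1%, against 5.46% elsewhere). Mean changes over the windows were -0.02 (SD over regions 0.31) and -0.04 (SD 0.36). No window region passed in the same direction in both lines, beside 0.321% of the other regions, again too small a share to show a difference. The smallest and largest values on either side of the limit were -0.63 and -0.60 in control and -0.61 and -0.60 in shRNA8 cells, and 5 regions in each line were past the size with too few probes in one direction.

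In control cells, chr2:87226575-87227386 was the higher one, at 0.97 (SD over 3 probes 0.58), with ratios of -0.30 and 0.67 in control and 0.17 and 0.71 in shRNA8 cells. Only 2 of the 3 probes had IP above background in every array, and these gave 1.28 and 2.19 in control and 2.11 and 2.13 in shRNA8 cells. Its net input was 7.66, 3.69, 8.48 and 4.51, lower at day +2 in both lines. The lower ones were chr19:13962628-13963534, at -0.67 (SD 0.40), and chr2:86990949-86991782, at -0.63 (SD 0.25), the region that was high in shRNA8 cells at day +2. Without their most different probes they came to -0.54 and -0.53, under the size, while the first kept 0.74.

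In shRNA8 cells, the lowest region of the larger chromosome 2 window, chr2:86912086-86913368, was higher at day +2 by 0.85 (SD 0.36) with all 3 probes, and its net input was 53.2 and then 24.7. The other higher region, chr9:39716308-39717783, was at 1.01 (SD 2.89) through the same 60 bp spot as above, and at -0.37 without it. Largest among the lower ones were chr2:111995449-111996367 at -1.13 (SD 0.90), chr19:11903231-11904094 at -1.05 (SD 0.47) and chr2:111593188-111594744 at -0.82 (SD 0.66). All probes of the first and second were lower. Without the most different probe, these 3 came to -0.77, -0.84 and -0.62.

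The day change in shRNA8 minus that in control cells, which is also the line difference at day +2 minus that at day -2, passed the size rule upward in 13 regions and downward in 9, beside 2.78% and 3.08% of all regions. Together these were 13.9%, beside 5.86%, and the value combines 4 arrays where each other difference combines 2. The smaller chromosome 2 window had the most one-sided values. Its 9 regions averaged -0.31 for the lines at day +2 (8 of 9 below 0, median -0.08) and -0.32 for the day change in shRNA8 cells (6 of 9, median -0.31). In each case 2 regions passed the size rule, chr2:111593188-111594744 and chr2:111995449-111996367, and the other 7 averaged -0.13. Both differences use the array of shRNA8 cells at day +2 and so are not separate results. Without that array, the means of this window were 0.07 for the lines at day -2 and 0.07 for the day change in control cells.

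In all, 27 of the 158 regions (17.1%) passed in at least 1 of the 4 comparisons, against 8.61% of the other regions. Of these, 21 passed once, 5 passed in 2 and 1, chr2:111995449-111996367, passed in 3. The 4 comparisons reuse the same 4 arrays, so passes of a region in more than 1 of them are not independent. The 34 differences that the 27 regions gave lay in the input channel. In each of them the input difference was opposite in sign to the ratio and larger than the IP difference. IP differed by -0.21 to 0.23, and input by 0.46 to 1.34 in size. Over all 158 regions the SD of the IP difference lay between 0.07 and 0.10, while the SD of the input difference was 0.31 to 0.38. In the other regions these SDs were 0.05 to 0.07 and 0.26 to 0.29, so the larger scatter of input was not particular to the windows. Of the 34 differences, 31 were in regions of 3 or 4 measured probes. But 84.8% of all 158 measured window regions had 3 or 4, so that count alone does not set them apart. An SD over probes larger than the difference was found in 11 of the 34, a count that was not compared with the other regions. Without the probe that differed most, 12 of the 34 stayed past the size and 1 turned sign, and outside the windows 24.7% of 1965 stayed.

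**Figure D4:**
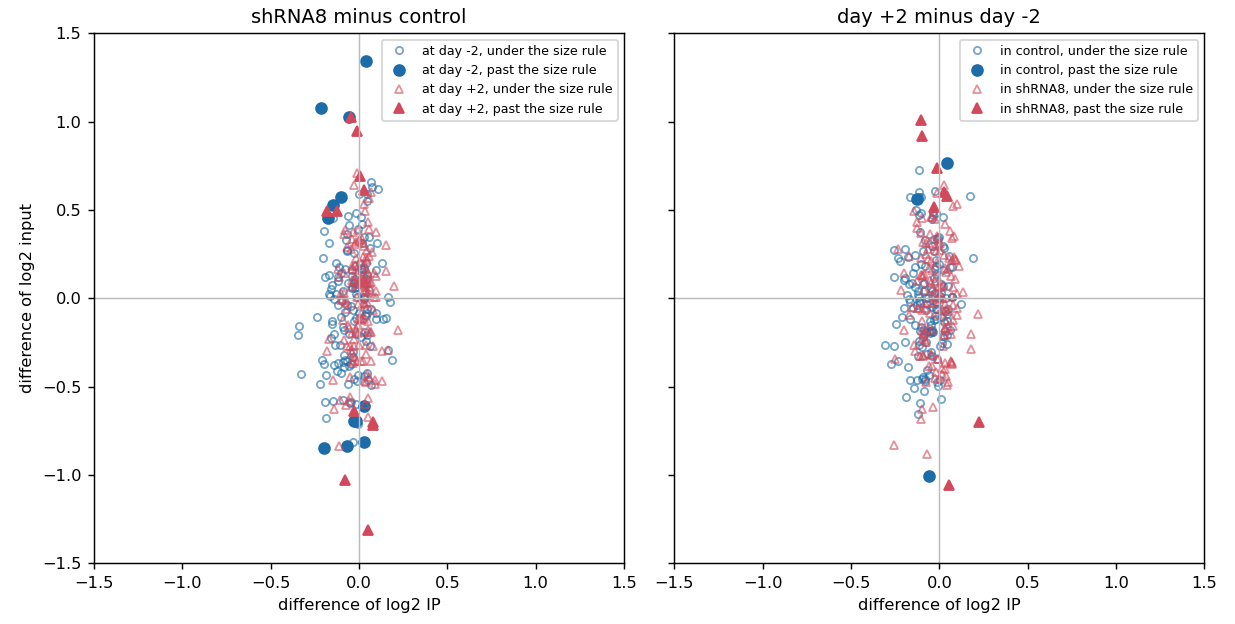
Difference of the log2 IP signal (horizontal) and of the log2 input signal (vertical) for the 158 window regions, between lines (left) and days (right). Filled symbols are the 34 differences past the size rule, which lie within -0.21 to 0.23 in IP and at 0.46 or more in size in input.

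Dim input went with this scatter. When all measured regions were put into 5 equal classes by mean input, 98 of the 158 window regions (62.0%) fell in the dimmest class, against 19.6% of the others, and 27 of the 34 differences came from it. Within that class the shares of the windows and the rest came nearer to each other between the lines but not between the days. They were 9.18% in the windows and 5.64% elsewhere between the lines at day -2, and 10.2% and 8.19% at day +2. For the day change they were 3.06% and 5.21% in control cells and 5.10% and 7.85% in shRNA8 cells. With 3 or 4 probes as well, the pairs were 9.09% and 7.20%, 10.2% and 9.82%, 3.41% and 6.56%, and 4.55% and 9.17%. With 88 window regions of that kind, 1 region is over 1 percentage point, and between the lines these pairs lay within 2 points of each other.

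**Figure D5:**
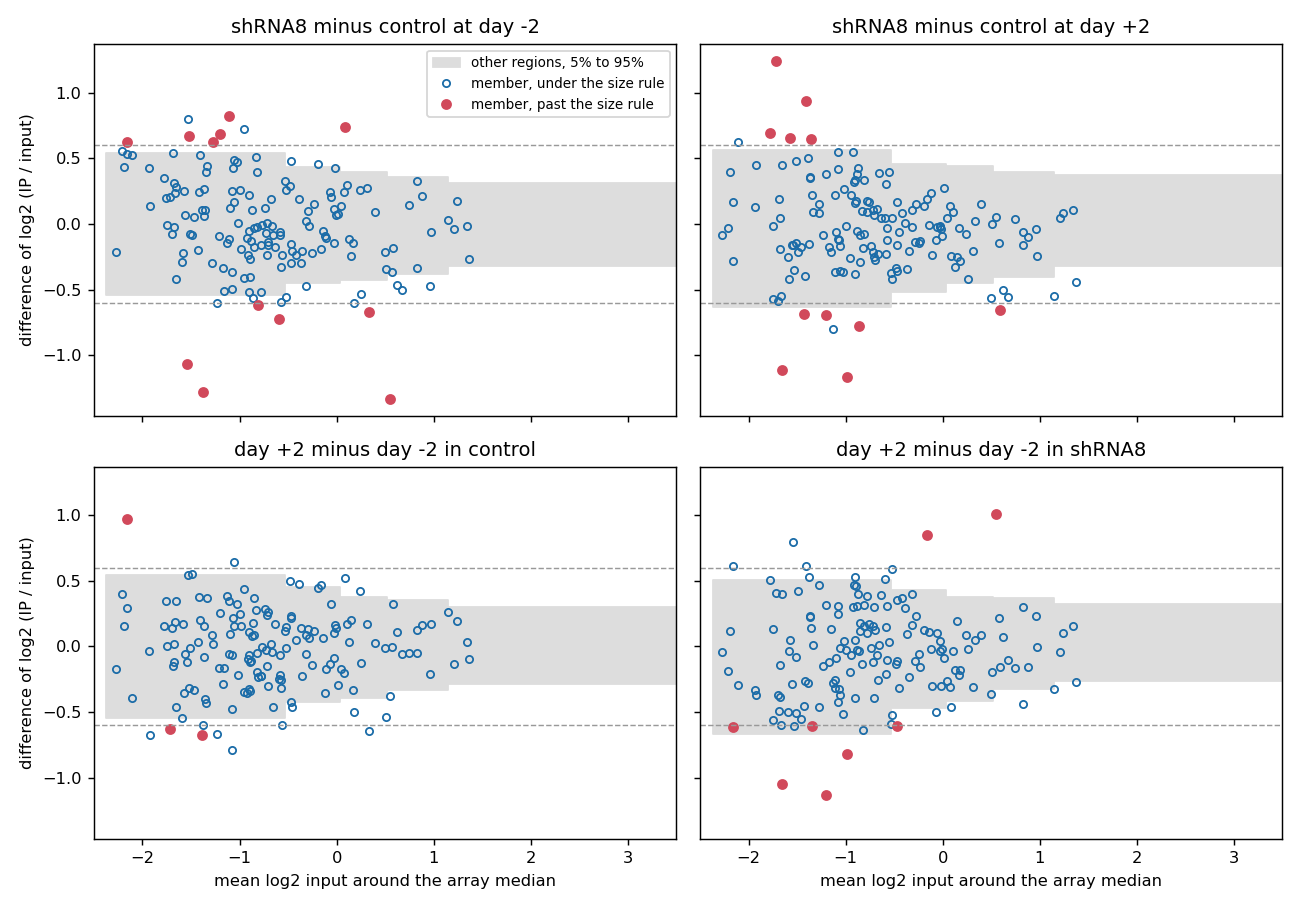
Difference of the log2 ratio of IP to input of each window region against its mean log2 input around the array median, in the 4 comparisons. Grey bands run from the 5% to the 95% point of the other regions in each of 5 input classes, dashed lines mark 0.6, and filled points are window regions past the size rule, most of them in the dimmest class (27 of 34).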

How the data were processed

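DNA of 4 samples was measured on 4 arrays. The authors deposited Feature Extraction 11.0.1.1 output on mm9 coordinates, per the file headers. Its intensity columns hold spot signals, background-subtracted signals and dye-normalized processed signals, and its deposited log10 ratio was only compared with them. It equalled the log10 ratio of the processed signals within 0.001 for 82.5% to 86.9% of probes. In shRNA8 cells at day -2 the processed signals were the background-subtracted ones times 1 factor per channel. In the other 3 arrays the factor varied by position. The submitters' processing notes name limma without a role. For shRNA8 at day +2 the label of the input names that day but also calls the cells uninduced. It was read as day +2.

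Log2 ratios of processed Cy5 to Cy3 were computed. Probes saturated, non-uniform or outlying in any array, or not above background in every input, were left out. Levels are uncentred. Differences use median-centred, quantile-normalized ratios and the size rule given above. Named regions are the highest, lowest and most probed per window and the up to 3 largest higher and lower differences per comparison. The members and lists were chosen with earlier results of these data known. Recovery by the size rule was tested on shuffled probe differences of these arrays with known shifts added. The joining and quantile steps were tested on made-up values. Python 3.11.15, numpy 2.4.6, pandas 2.3.3, R 4.3.3 and limma 3.58.1 were used.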

Additional observations from a re-analysis of the deposited data

Results flagged for a closer look

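Region chr2:111995449-111996367 moved in opposite directions in shRNA8 and control cells at the 2 days. It was higher in shRNA8 cells by 0.69 (SD over 4 probes 0.60) at day -2, with all 4 probes higher, and lower by -0.69 (SD 1.11) at day +2, with 3 of 4 probes lower. Its log2 ratios were 0.63 (day -2) and 0.90 (day +2) in control cells and 1.25 and 0.10 in shRNA8 cells. Net IP was 111.7, 124.9, 131.5 and 128.3 and net input 12.8, 10.0, 11.4 and 18.3 in the same order. Without the probe that differed most, the values were 0.42 and -0.27. The difference between the days was not tested, since each group has 1 array.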

How the results depend on the processing

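No paired analysis was possible because each group has 1 array and the groups share fewer than 2 replicate numbers. An additive fit of line and day would leave 1 residual degree of freedom and was not run. The order below is the lines at day -2 and day +2, the day change in control and in shRNA8 cells, and the difference of day changes, where the counts of regions past the size rule were 12, 11, 3, 8 and 22. A within-array loess gave 22, 29, 16 and 20 for the first 4, which is 13.9%, 18.4%, 10.1% and 12.7% against 5.39% to 6.78% elsewhere. No filter on input gave 3 and 7 between the lines and 5 for control. Input well above background gave 0, 0, 1, 0 and 1, and at least 5 probes gave 1, 1, 0, 1 and 4. At least 5 probes left 24 window regions. Their shares were 4.17%, 4.17%, 0%, 4.17% and 16.7%, beside 1.11%, 1.93%, 1.12%, 2.47% and 3.46% elsewhere. A size of 1 gave 3, 3, 0, 3 and 6, and a size of 0.4 gave 34, 26, 15, 23 and 34. Counts given here without a share elsewhere are not read against the other regions. Signals without background subtraction, and IP alone, gave 0 in all 5. Probes of 60 bp alone, with only 4 window regions left, gave 0, 0, 0 and 1 for all but control. Without each region's most different probe, an alternative added after seeing the data, the first 4 counts were 3, 4, 1 and 4. All probes moving the same way gave 5 in shRNA8 and 13 for the difference. For control, median centring alone gave 5, medians of probes 6 and joining after the filters 5.

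The ratio of the windows minus the rest, at -0.30 and -0.20 in control and -0.31 and -0.40 in shRNA8 cells, was -0.066, 0.00041, -0.037 and -0.14 with loess, so that the sign turned in control cells at day +2. It was -1.002, -1.06, -0.90 and -1.004 without the filter and -0.71, -0.65, -0.63 and -0.71 without background subtraction. With the length medians removed (added after seeing the data) it was -0.040, -0.050, -0.070 and -0.10. Medians of probes gave -0.20 in control and -0.21 in shRNA8 cells at day -2, and -0.26 in shRNA8 cells at day +2. At least 5 probes gave -0.46 in control cells at day -2, and input well above background gave -0.14 and -0.16 in shRNA8 cells. With 60 bp probes alone only 4 window regions were left and the sign turned, at 1.42, 1.08, 0.91 and 1.31. The cause was not tested.

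Mean differences of the windows minus the rest, at -0.01, -0.04, -0.02 and -0.05, became -0.16, -0.22, 0.23 and 0.17 with 60 bp probes alone, 0.072 for the lines at day -2 without the filter, and 0.062 for control with at least 5 probes. Among 21 named differences, IP alone turned the sign of chr2:86116143-86117888 (0.066), chr2:86516994-86518097 (-0.095), chr9:37724833-37726518 (-0.036) and chr19:13962628-13963534 (0.073). That of chr9:39716308-39717783 between the days in shRNA8 cells was -0.42 with input well above background and -0.37 without its most different probe.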
